A study of Mus musculus with 38 samples.

Results

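The T-cell receptor signals through a short chain of proteins, and the genes of 9 of them were followed here in the mouse genome: Cd3d, Cd3e, Cd3g, Cd247, Lck, Zap70, Lat, Cd28 and Cd5. They were chosen by name from the GENCODE vM1 annotation of NCBI37/mm9, and they are 9 of 22367 protein-coding gene records on chromosomes 1 to 19, X and Y. All peaks of 11 lists were taken in each gene body and its 50 kb flanks. The windows of Cd3g, Cd3d and Cd3e overlap on chromosome 9, so the 9 genes gave 7 loci, which together span 0.958 Mb.

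The receptor itself has no catalytic activity. Its CD3 subunits (encoded by Cd3d, Cd3e and Cd3g) and the zeta chain (Cd247) carry tyrosine motifs that the kinase Lck phosphorylates. The kinase Zap70 docks on those motifs and phosphorylates the adaptor Lat, on which the downstream signalling complex assembles. Cd28 gives the co-stimulatory signal, and Cd5 is a surface receptor that dampens the response. SATB1 is a nuclear protein, abundant in thymocytes, that binds base-unpairing regions (BURs), which are AT-rich stretches in which one strand lacks G or lacks C over some distance and which unpair readily under torsional stress. CTCF is the zinc-finger protein that marks many domain borders and loop anchors.

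The study asked where SATB1 touches DNA directly. In urea ChIP-seq, formaldehyde-crosslinked chromatin was spun through urea in an ultracentrifuge before immunoprecipitation, which removes proteins that are not crosslinked directly to DNA. In standard ChIP-seq, crosslinked and sonicated chromatin was used without that step. SATB1 urea lists came from 2 thymocyte, 2 brain (cortex cells) and 2 skin (primary epidermal keratinocyte) libraries, standard SATB1 lists from 2 thymocyte libraries, and CTCF urea lists from 1 thymocyte and 1 skin library. The BUR map is 1 list of thymocyte genomic DNA fragments bound in vitro by recombinant SATB1, without chromatin.

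All cells were from wild-type (Satb1+/+) C57BL/6 mice. The age label is postnatal day 13 for all thymocyte and skin libraries, but the titles of the thymocyte CTCF library and of standard replicate 1 give 6 weeks, and the protocol gives day 5 for skin. The brain libraries are labelled 5 and 6 weeks, where their protocol gives day 13. All urea SATB1 libraries and standard replicate 2 used the home-made antibody 1583D, whereas standard replicate 1 used an Abcam antibody. The thymocyte urea libraries differ in the amount of antibody, 4 µl in replicate 1 and 2 µl in replicate 2. The titles of replicates 1 and 2 give 10 and 12 cycles for brain urea SATB1 and 55 s and 60 s for skin urea SATB1. The study's reporting checklist states that replicates are cells from different animals. In each tissue, however, the titles of the 2 urea SATB1 libraries share a code number, and those of the 2 standard libraries do not. What the code stands for is not given, so a shared preparation cannot be told from the labels. The labels tie no library to an animal, so the p-values below are read as measuring the spread between these libraries. No expression data were used, so the cell labels could not be set against marker genes.

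The lists differ in length. Thymocyte urea SATB1 had 45049 and 38882 peaks, thymocyte standard SATB1 48175 and 27147, brain 117963 and 109154, skin 11210 and 10846, thymocyte CTCF 20323, skin CTCF 31509 and the BUR map 238380. They hold no read counts, so the depth of each library is unknown, and each value below is a peak's fold enrichment over the local background of its own library, which is not scaled between libraries.

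Sequences at 8 places are printed as examples. Each is 200 bp of NCBIM37, the assembly of mm9. The first 3 are centred on the summits of the BURs that carried a urea SATB1 peak in both thymocyte replicates. The next 3 are, for the Cd5, Cd3 and Lck loci, the BUR of highest in vitro fold enrichment outside exons, none of which had a urea peak in any tissue. The seventh is the thymocyte urea site in the Cd247 window with the highest mean fold, which lies on no BUR, and the last is the DNA upstream of the Lat start, inside a standard SATB1 peak. Capitals mark the longest stretch without G or without C on the strand shown.
Lat, bound BUR, chr7:133486878-133487077, plus strand: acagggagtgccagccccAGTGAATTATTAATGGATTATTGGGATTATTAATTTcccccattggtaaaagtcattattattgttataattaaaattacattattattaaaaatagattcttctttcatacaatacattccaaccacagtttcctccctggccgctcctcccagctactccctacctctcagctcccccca
Zap70, bound BUR, chr1:36841166-36841365, plus strand: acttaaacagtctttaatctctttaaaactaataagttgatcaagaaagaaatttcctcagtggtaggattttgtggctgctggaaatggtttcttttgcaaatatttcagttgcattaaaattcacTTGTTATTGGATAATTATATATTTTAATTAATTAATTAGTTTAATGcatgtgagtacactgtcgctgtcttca
Cd3, bound BUR, chr9:44801770-44801969, plus strand: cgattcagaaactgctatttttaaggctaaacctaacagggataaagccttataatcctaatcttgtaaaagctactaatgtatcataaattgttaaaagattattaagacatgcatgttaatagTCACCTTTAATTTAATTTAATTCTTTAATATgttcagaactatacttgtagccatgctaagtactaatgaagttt
Cd5, unbound BUR, chr19:10838915-10839114, plus strand: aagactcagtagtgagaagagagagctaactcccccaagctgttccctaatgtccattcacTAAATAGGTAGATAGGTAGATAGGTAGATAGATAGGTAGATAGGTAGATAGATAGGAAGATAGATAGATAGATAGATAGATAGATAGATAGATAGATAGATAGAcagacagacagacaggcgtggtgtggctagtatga
Cd3, unbound BUR, chr9:44823525-44823724, plus strand: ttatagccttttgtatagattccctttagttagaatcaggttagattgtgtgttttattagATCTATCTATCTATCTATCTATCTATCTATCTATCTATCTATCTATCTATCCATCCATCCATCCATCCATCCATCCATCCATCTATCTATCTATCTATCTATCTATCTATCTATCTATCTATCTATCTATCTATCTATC
Lck, unbound BUR, chr4:129252099-129252298, plus strand: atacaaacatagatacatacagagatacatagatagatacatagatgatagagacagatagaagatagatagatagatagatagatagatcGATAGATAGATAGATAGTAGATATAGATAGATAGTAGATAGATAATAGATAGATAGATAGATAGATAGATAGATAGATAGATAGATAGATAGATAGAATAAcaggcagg
Cd247, site off the BURs, chr1:167839985-167840184, plus strand: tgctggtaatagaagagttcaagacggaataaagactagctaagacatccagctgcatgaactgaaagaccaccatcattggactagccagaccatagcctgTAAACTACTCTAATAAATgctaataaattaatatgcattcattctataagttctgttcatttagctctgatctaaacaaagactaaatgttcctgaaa
Lat start, upstream DNA, chr7:133513058-133513257, minus strand: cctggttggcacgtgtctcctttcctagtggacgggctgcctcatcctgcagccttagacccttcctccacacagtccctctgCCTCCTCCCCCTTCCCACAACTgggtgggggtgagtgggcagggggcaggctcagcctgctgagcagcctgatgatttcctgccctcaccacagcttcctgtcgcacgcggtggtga

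The 3 bound BURs held runs of mixed AT-rich sequence, with an AT content of 61.5% at Lat, 71.5% at Zap70 and 72.5% at Cd3 and longest G-free or C-free stretches of 36, 46 and 31 bp. The 3 unbound BURs were tandem GATA repeats (TATC on the other strand) and their stretches were 104 bp at Cd5, 139 bp at Cd3 and 101 bp at Lck. The Cd3 stretch ran to the end of the printed 200 bp, so 139 bp is a lower bound. At the loci not printed, the unbound BUR of highest in vitro fold enrichment also held such a repeat at Zap70 (14.3) and Lat (21.6). At Cd28 (16.6) and Cd247 (14.2) it did not. The Lat start was GC-rich, with 36.5% AT.

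In thymocytes the urea method gave far fewer SATB1 peaks at these genes than the standard method. Of the 22 urea sites of the 3 tissues, 3 lay within a member's gene body (2 in Cd247 and 1 in Cd28). In thymocytes alone, the gene bodies held a mean of 1.00 urea peak and 28.0 standard peaks (SD 0 and 5.66, n = 2 each). Both thymocyte urea libraries had 9 peaks over the 7 loci (mean 9.00 ± 0, SD, n = 2), against 102 and 75 in the thymocyte standard libraries (88.5 ± 19.1, SD, n = 2). Brain had 17 and 15 urea peaks (16.0 ± 1.41, SD, n = 2) and skin had 0 and 1. CTCF had 29 peaks in thymocytes and 29 in skin, and the BUR map had 50 BURs.

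**Figure D1:**
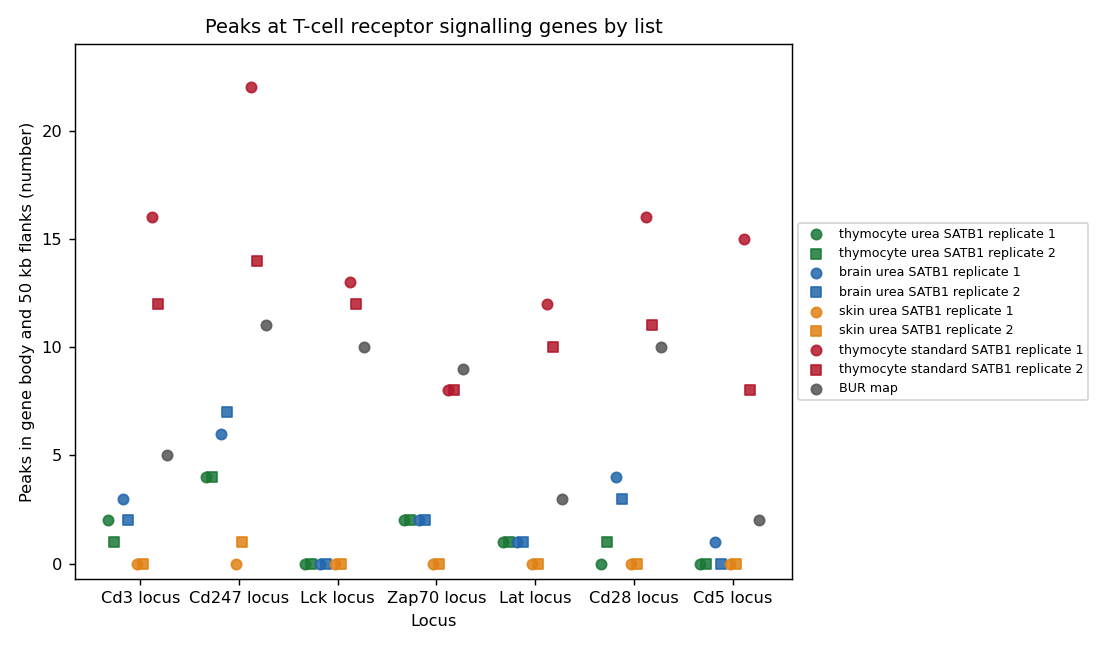
Number of peaks (vertical axis) in each of the 7 loci (horizontal axis) for the SATB1 lists and the BUR map; circles are replicate 1 and squares replicate 2. The standard SATB1 points lie between 8 and 22 in all 7 loci, and the thymocyte urea points between 0 and 4.

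Over the 6 urea libraries the number of peaks rose from skin through thymocytes to brain, with no overlap between tissues (Jonckheere-Terpstra statistic, one-sided, exact over all 90 arrangements of the libraries, p = 0.0111, the smallest possible). This is the order of the lengths of the whole lists and was known beforehand, so the test gives it no independent support. With every SATB1 list cut to its 10846 top-ranked peaks, brain and skin differed by 0.500 peaks and the test of the order gave p = 0.333 (exact permutation, one-sided). As a share of the whole list, the loci took 0.0200% and 0.0231% of the thymocyte urea peaks, 0.0144% and 0.0137% of the brain peaks, 0% and 0.00922% of the skin peaks, and 0.212% and 0.276% of the thymocyte standard peaks.

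The standard method gave 79.5 more peaks than the urea method in thymocytes, with every standard library above every urea library. The exact two-sided permutation test of 2 libraries against 2 gave p = 0.333, the smallest it can give. Standard replicate 2, made with the antibody of the urea libraries, had 75 peaks, and standard replicate 1, made with the Abcam antibody, had 102. The titles of these 2 libraries also differ, with 15 s in replicate 1 and 150 s in replicate 2, and 6 weeks in replicate 1 alone. The part of the antibody in these counts was not tested and cannot be told apart from these differences. With lists of equal size the difference was 34.0 peaks, and in flanks of 20 kb it was 52.5.

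Per gene, a window held a median of 13.0 standard peaks in replicate 1 and 10.0 in replicate 2, where the median of all protein-coding genes was 4.00 and 2.00. The medians for thymocyte urea SATB1 were 2.00 and 1.00 in the members and 1.00 in all genes in both replicates. For the BUR map they were 5.00 in the members and 6.00 in all genes. The windows were of like length, with medians of 121 kb in the members and 115 kb in all genes. The number of genes in a window was not taken into account. The overlapping windows of Cd3d, Cd3e and Cd3g enter the medians as 3 genes. In standard replicate 1 they held 12, 15 and 13 peaks, where the whole Cd3 locus had 16.

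A thymocyte urea peak in both replicates lay in the window of 6 of the 9 members (Cd3d, Cd3e, Cd3g, Cd247, Zap70 and Lat), against a background of 57.8% of all protein-coding genes. Since the 3 Cd3 windows share 1 peak, the 6 genes rest on 4 loci. In brain the count was 7 of 9, adding Cd28, against 74.5%, and in skin it was 0 of 9 against 28.9%. With lists of equal size, 1 member had a thymocyte urea peak in both replicates (Lat) and 1 a brain peak (Zap70). Without skin replicate 1, 1 member (Cd247) had a skin peak. The share of all protein-coding genes was not counted in these settings, so these counts have no background. In brain, 2 of 9 members (Cd247 and Cd28) had a peak in the gene body, against 30.5%, and 0 of 9 at a start, against 6.79%. In skin it was 0 of 9 in the body, against 9.41%, and 0 of 9 at a start, against 0.943%. A BUR lay in the window of 9 of 9 members, against 97.0% of genes, in the body of 4 (Cd3g, Cd247, Lck and Cd28), against 46.1%, and near a start of 3 (Cd3g, Lck and Cd28), against 15.1%.

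The standard method marked the members more often than genes at large. A standard SATB1 peak in both replicates lay in the window of 9 of 9 members, against 71.2% of genes, in the gene body of 9 of 9, against 45.5%, and within 1 kb of an annotated transcript start of 8 of 9, against 40.9%. The exception was Cd3d, where only replicate 1 had a peak over the start (fold enrichment 3.19) and the nearest site in both replicates was 1.14 kb away, at the Cd3g start. By the urea method, 0 of 9 members had a thymocyte peak in both replicates at a start, against 2.95%, and 0 of 9 in the gene body, against 20.2%.

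The other genes of the pathway were counted in the same way. They were 39 further genes of T-cell receptor signalling (coreceptors, kinases, adaptors, phosphatases and downstream factors). All 39 had a standard SATB1 peak of both replicates in the window, against 71.2% of all protein-coding genes. At a start, 34 (87.2%) had a standard peak, against 40.9%. A thymocyte urea peak lay in the window of 23 (59.0%), near the 57.8% of all genes. In the gene body, 14 of the 39 (35.9%) had a thymocyte urea peak, against 20.2%, with gene length not taken into account. One gene (Cbl) had a thymocyte urea peak at a start, against 2.95%.

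**Figure D2:**
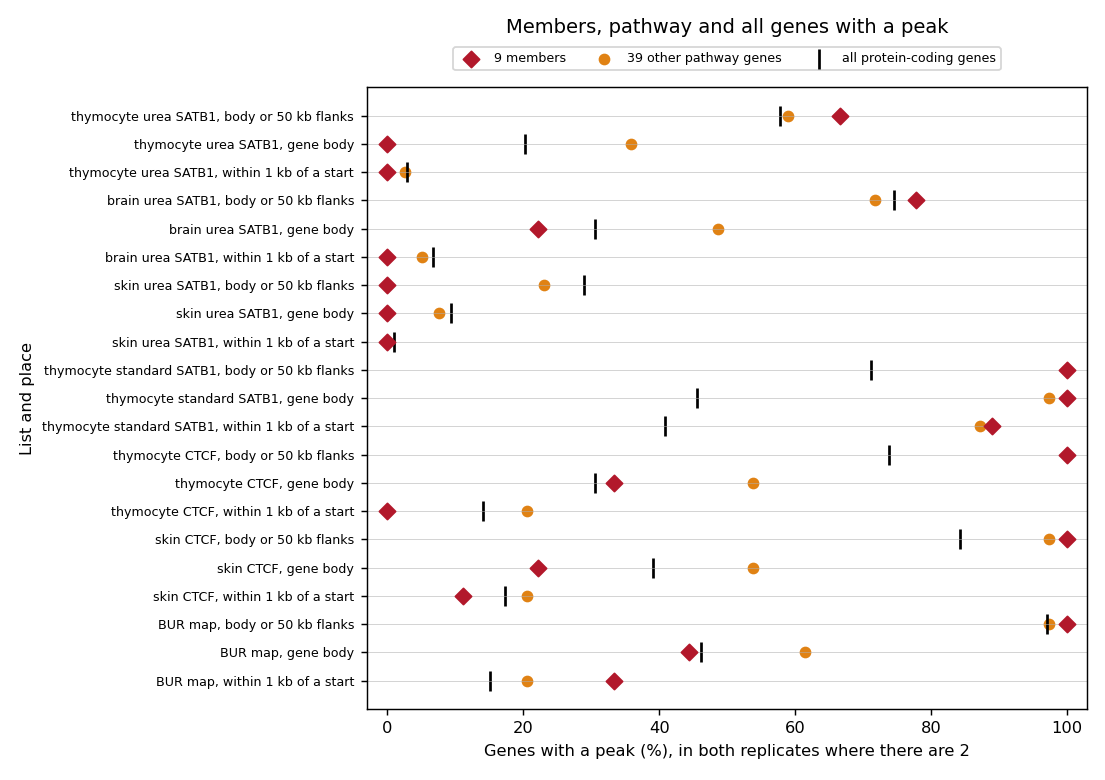
Percentage of genes with a peak (horizontal axis) by list and place (vertical axis) for the 9 members (diamonds), the 39 other pathway genes (circles) and all 22367 protein-coding genes (bars); 2-replicate lists count peaks found in both. The diamonds for standard SATB1 lie at or near 100%, right of the 40.9% to 71.2% of all genes, and those for urea SATB1 at starts lie at 0.

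The CD3 chains and Cd247 form the signal-transmitting part of the receptor. Cd3g (chr9:44777655-44788514, minus strand), Cd3d (chr9:44789876-44795135, plus strand) and Cd3e (chr9:44806826-44817673, minus strand) lie side by side. The BUR between Cd3d and Cd3e, at chr9:44801594-44802128, was the 1 site of this locus with a urea peak in both thymocyte replicates. Its fold enrichment was 6.10 and 7.26 in thymocytes (6.68 ± 0.824, SD, n = 2) and 11.6 and 11.8 in brain (11.7 ± 0.0990, SD, n = 2), and neither skin library had a peak. The site is intergenic, 4.68 kb beyond the 3′ end of Cd3e. Both brain values were above both thymocyte values, on scales that are each library's own.

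A second BUR, at chr9:44830679-44831056, 13.0 kb upstream of the Cd3e start, had 9.59 and 7.29 in brain and 4.83 in thymocyte replicate 1 only. CTCF peaks of both tissues overlapped the same place, at a fold enrichment of 11.0 in thymocytes and 9.10 in skin. The BUR of highest in vitro fold enrichment in the locus (21.6, the repeat printed above, at chr9:44823351-44823959) had no urea peak. A standard SATB1 peak of both replicates overlapped its edge, with 9.77 and 7.95.

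Standard peaks of both replicates covered the starts of Cd3g (fold enrichment 10.1 and 8.62) and Cd3e (5.89 and 5.45). A stronger one covered the 3′ end of Cd3d, at chr9:44794464-44795373, with 14.0 and 11.9 (13.0 ± 1.48, SD, n = 2), and the strongest of the locus lay in an intron of the neighbour Ube4a, at chr9:44762364-44762963, with 20.5 and 16.0. None of these 4 sites overlapped a BUR or a CTCF peak. A thymocyte CTCF peak at the 3′ end of Cd3g (chr9:44777643-44777816, fold enrichment 5.26) was not in the skin list.

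Cd247 (chr1:167718812-167807407, plus strand) encodes the zeta chain and is the longest member. Its window held 4 thymocyte urea peaks in each replicate, of which the replicates shared 2. Both lie 3′ of the gene in introns of Pou2f1, which encodes the transcription factor OCT1. The first, at chr1:167839884-167840343, had 9.10 and 7.63 in thymocytes and 6.17 and 5.06 in brain, and 4.91 in skin replicate 2, the 1 skin peak of all 7 loci. The second, at chr1:167852407-167852879, had 8.38 and 7.02 in thymocytes and 6.85 and 7.95 in brain.

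Neither of these Pou2f1 sites overlapped a BUR, and the nearest BURs were 4.66 kb and 2.83 kb away. The longest G-free stretch of the first was 18 bp, and 99.7% of all BURs had one at least as long. Between them lay a BUR with a urea SATB1 peak called in brain alone, at chr1:167845007-167845433 in a coding exon of Pou2f1. It had 13.1 and 9.49 in brain (11.3 ± 2.52, SD, n = 2) and no peak in the shorter thymocyte and skin lists. It was the strongest such brain site in the 7 loci.

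Within Cd247 the urea peaks were not shared by the thymocyte replicates. An intronic site at chr1:167768209-167768693 had 5.84 in thymocyte replicate 1 and 4.41 and 7.73 in brain, and another at chr1:167721128-167721377 had 5.46 in thymocyte replicate 2 alone. The latter was the 1 thymocyte urea site of the loci with no peak in brain. The standard method gave a peak at the Cd247 start with 9.15 and 8.22, a second within 1 kb of it, and a series of intronic peaks.

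Lck (chr4:129225588-129250885, minus strand) encodes the kinase that starts the cascade. It has a distal promoter and a proximal one, of which the proximal is known for its use in immature thymocytes. Lck had no urea SATB1 peak in its window in any of the 6 libraries, although the window held 10 BURs. The nearest urea site of both thymocyte replicates was 354 kb from the distal start, and 4.18% of protein-coding genes were as far or farther from one. For brain the distance was 154 kb, with 8.23% of genes as far.

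The standard method gave strong peaks at the proximal starts and upstream of the distal one. At the proximal starts, chr4:129235489-129236208 had 10.5 and 7.19 (8.84 ± 2.33, SD, n = 2). The distal start itself had a weak peak in replicate 1 only (2.91), and 1.30 kb upstream of it a peak at chr4:129252190-129253061 had 7.35 and 9.70 (8.52 ± 1.66, SD, n = 2). That peak spanned the gap between a pair of BURs and overlapped both, of in vitro fold enrichment 13.9 (the Lck repeat printed above) and 5.15. A skin CTCF peak at chr4:129232381-129232948, over a coding exon just downstream of the proximal starts (7.27), had no counterpart in thymocytes.

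Zap70 (chr1:36818695-36839663, plus strand) is the kinase that Lck activates at the receptor. Just 1.30 kb beyond its 3′ end lay the urea site of highest fold enrichment in brain among the 7 loci, on the BUR chr1:36841035-36841558, with 20.7 and 19.4 in brain (20.1 ± 0.945, SD, n = 2) and 11.7 and 6.76 in thymocytes (9.22 ± 3.47, SD, n = 2). The skin libraries had none there. CTCF peaks of both tissues overlapped the BUR's edge, at 7.42 in thymocytes and 7.93 in skin, and a standard SATB1 peak of replicate 1 (4.44) began 0.0580 kb beyond the urea site.

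A second urea site of the Zap70 window, at chr1:36865289-36865726 over a coding exon of Tmem131, lay on no BUR and had 4.06 and 5.20 in thymocytes and 5.56 and 5.52 in brain, the lowest mean of the 6 sites shared by the thymocyte replicates (4.63 ± 0.803, SD, n = 2). At the Zap70 start the standard peak had 12.1 and 10.2 (11.2 ± 1.28, SD, n = 2).

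Lat (chr7:133507346-133513057, minus strand) encodes the adaptor that Zap70 phosphorylates. Its window held the strongest thymocyte urea site, on the intergenic BUR chr7:133486727-133487165, 20.1 kb beyond the 3′ end of Lat. Fold enrichment was 17.2 and 16.9 in thymocytes (17.1 ± 0.209, SD, n = 2) and 19.1 and 18.6 in brain (18.8 ± 0.364, SD, n = 2), and the in vitro value was 10.7. In thymocytes 10.2% and 13.1% of all urea peaks were as high. Neither skin library had a peak there, and it was the 1 site of both thymocyte replicates that remained with lists of equal size. The Lat start had the strongest standard peak at any member's start, with 21.8 and 13.2 (17.5 ± 6.09, SD, n = 2). In replicate 1, 0.797% of the peaks were as high. In replicate 2 it was below the highest peak of the loci (16.0), and 3.02% of the peaks of that list were as high as 16.0.

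The co-stimulatory and the dampening receptor had no thymocyte urea site in both replicates. Cd28 (chr1:60773644-60830203, plus strand), the co-stimulatory receptor, had 10 BURs in its window and 1 thymocyte urea peak, 38.9 kb upstream in replicate 2 (4.94), where brain replicate 1 had 5.18. Both brain replicates had a peak on the BUR chr1:60820750-60821189 in a non-coding exon of Cd28, with 8.77 and 6.41 (7.59 ± 1.67, SD, n = 2). The standard peak at an internal annotated start, chr1:60802865-60803433, had 8.99 and 9.42. The standard site of both replicates nearest to the most 5′ annotated start was 13.8 kb away.

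Cd5 (chr19:10792633-10813464, minus strand), the dampening receptor, had the fewest BURs (2) and no thymocyte urea peak. One BUR, at chr19:10761954-10762428, had 6.90 in brain replicate 1 alone. The other, at chr19:10838746-10839308 in an intron of A430093F15Rik, had the highest in vitro fold enrichment of the 50 BURs (23.8, reached by 0.0906% of all BURs) and no peak in vivo. The standard peak at the Cd5 start had 8.55 and 4.60 (6.57 ± 2.80, SD, n = 2), and another a little upstream, at chr19:10815031-10815550, had 9.60 and 6.16 and overlapped a thymocyte CTCF peak (4.50) absent from skin.

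**Figure D3:**
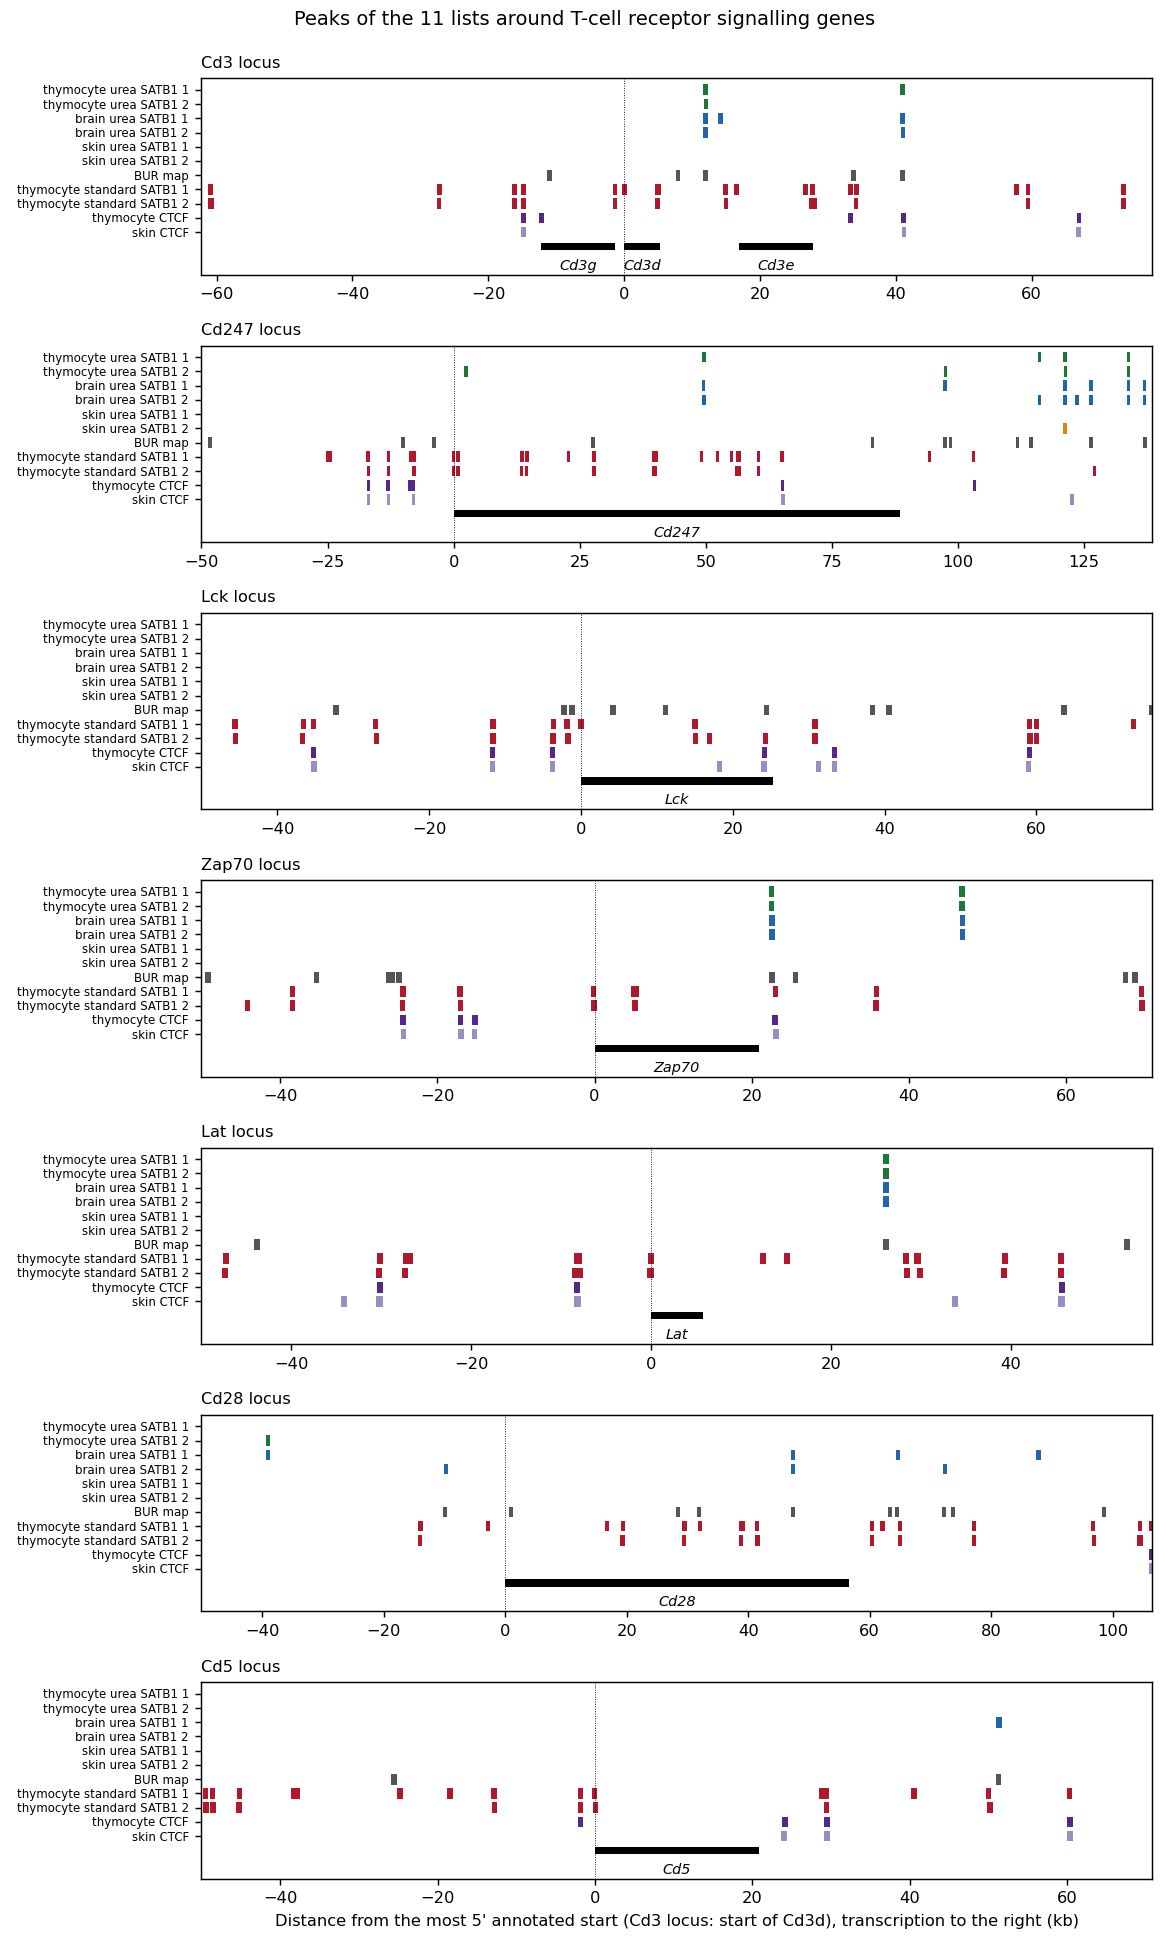
Peaks of the 11 lists in the 7 loci, against distance in kb from the most 5′ annotated start (Cd3d in the Cd3 locus), with transcription to the right, 1 row per list and black bars for gene bodies; peaks narrower than 0.7 kb are drawn at that width. Urea SATB1 peaks lie mostly beyond the gene bodies, the Lck panel has none, and standard SATB1 peaks stand at the starts and throughout the windows.

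Across the loci the 6 urea libraries marked 22 separate sites. Of the 12 with a thymocyte peak, 11 also had a brain peak, and all 6 sites shared by both thymocyte replicates were in both brain replicates. The 6 sites seen in 1 thymocyte replicate had fold enrichments between 4.68 and 5.84, and those in both between 4.06 and 17.2. Brain had a further 3 sites in both replicates and 7 in 1 replicate, without a thymocyte peak. No BUR had a urea peak in all 3 tissues, and 0 of 50 had a skin peak.

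**Figure D4:**
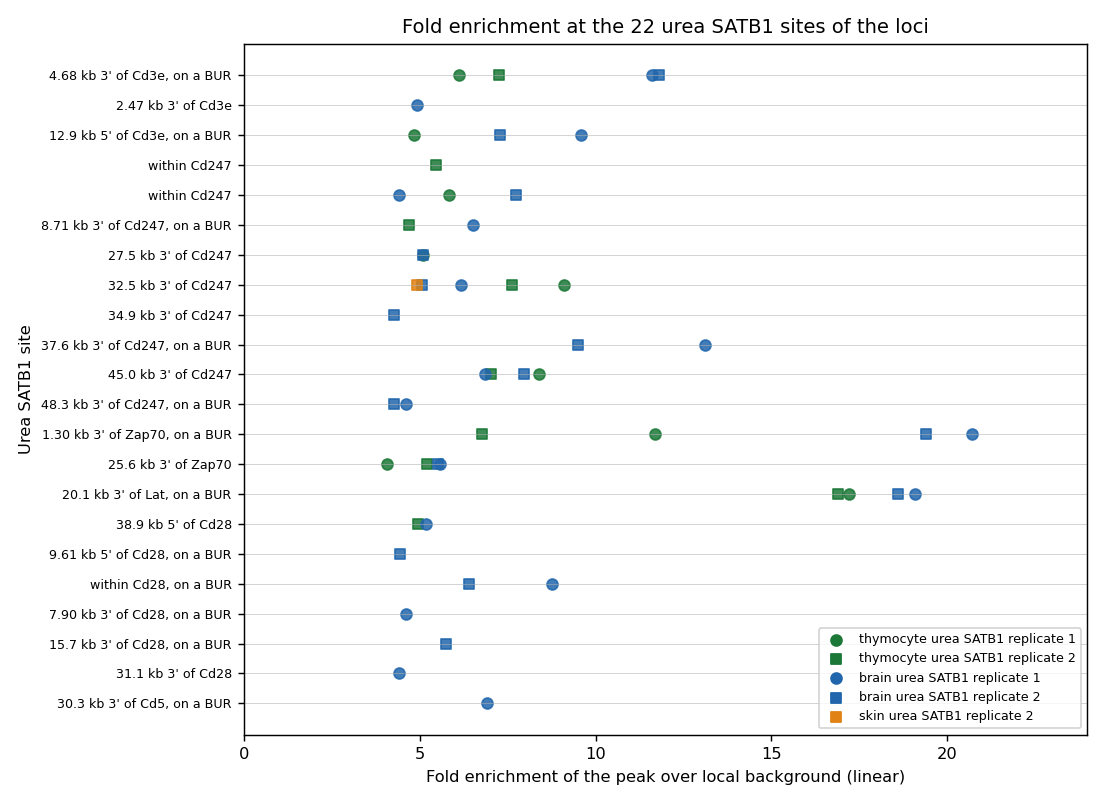
Fold enrichment over local background (horizontal axis, linear) at the 22 urea SATB1 sites (vertical axis, named by their place relative to the nearest member), with 1 point per library that had a peak; circles are replicate 1 and squares replicate 2. The Lat and Zap70 sites stand apart in brain at 18.6 to 20.7, and Lat in thymocytes at 16.9 and 17.2.

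Occupancy of BURs by urea SATB1 was below that of the genome. In thymocytes 4 of the 50 BURs (8.00%) overlapped a urea peak in each replicate, where 14.3% and 12.6% of all BURs did. In brain it was 10 and 9 (20.0% and 18.0%), where 36.2% and 33.4% of all BURs did, and in skin 0, where 3.68% and 3.61% did. Read the other way, 44.4% of the thymocyte urea peaks in the loci lay on a BUR in each replicate, against 75.8% and 77.6% of the whole lists. For standard SATB1 the share was 3.92% and 5.33% in the loci and 3.78% and 5.20% in the whole lists.

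The urea share exceeded the standard share by 39.8 percentage points (44.4 ± 0 against 4.63 ± 0.998, SD, n = 2 each; exact two-sided permutation test, p = 0.333, the smallest possible). In gene bodies alone the difference turned to -7.29, on 1 thymocyte urea peak per replicate, neither on a BUR. With lists of equal size it was 94.3 points, on 1 urea peak per replicate, and in flanks of 20 kb 67.7. Of the thymocyte urea peaks, 1 of 9 in replicate 1 and 0 of 9 in replicate 2 overlapped a thymocyte CTCF peak (5.56% ± 7.86, SD, n = 2), against 22 of 102 and 16 of 75 standard peaks (21.5% ± 0.166, SD, n = 2), a difference of 15.9 percentage points (exact two-sided permutation test, p = 0.333). Of the whole lists, 0.653% and 0.728% of the urea peaks and 22.2% and 18.0% of the standard peaks overlapped one, so the standard share in the loci was near that of the whole lists. The difference was 10.3 without thymocyte urea replicate 2 and 7.05 with flanks of 100 kb.

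Bound and unbound BURs of the loci differed in their letters. The tandem repeat GATAGATAGATAGATA, or TATCTATCTATCTATC on the other strand, was searched in the 200 bp at each summit, after the sequences above had been seen. It was in 11 of the 50 BURs (22.0%), against 8.53% of all BURs, and in 7 of the 10 BURs of highest in vitro fold enrichment. None of the 12 BURs with a urea peak in any library had it, and 11 of the 38 without one did. In the whole map, over the 232302 BURs whose 200 bases could all be read from the assembly, 7.08% of the 19805 with the repeat overlapped a urea SATB1 peak in at least 1 library, against 43.7% of the 212497 without it, although their median in vitro fold enrichment was 10.8 against 5.60. Setting the repeat BURs aside, 12 of 39 in the loci (30.8%) overlapped a urea peak.

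The median of the longest G-free or C-free stretch was 33.0 bp in the 12 BURs with a urea peak and 60.5 bp in the 38 without, and in the whole map 33.0 and 41.0 bp. The in vitro fold enrichment of the 2 sets in the loci had medians of 6.68 and 6.96. In the whole map the order was the other way, with 6.82 for BURs with a urea peak and 5.34 for those without. The authors kept only uniquely matching reads for all lists, the BUR map included, and how well reads can be placed in such repeats was not tested. Standard SATB1 peaks of both replicates overlapped 4 BURs of the loci. In each standard replicate 5 of the 50 BURs (10.0%) overlapped a peak, against 0.686% and 0.565% of all BURs. Of the 11 repeat BURs, 3 (27.3%) did so in each, against 1.42% and 2.33% of all BURs with the repeat.

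**Figure D5:**
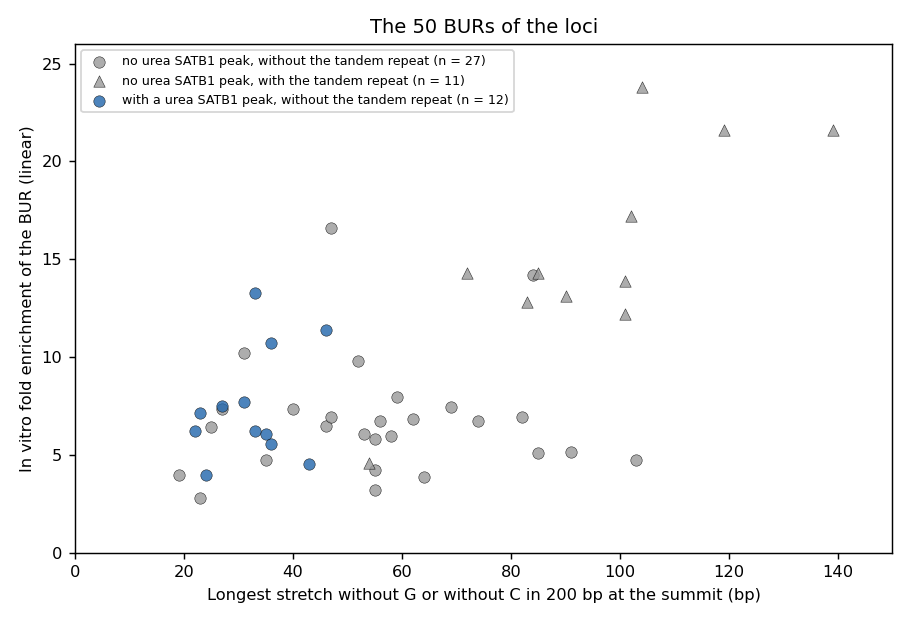
In vitro fold enrichment (vertical axis, linear) of the 50 BURs of the loci against the longest stretch without G or without C in the 200 bp at the summit (horizontal axis, bp); blue points have a urea SATB1 peak in any library and triangles hold the tandem GATA repeat. The blue points lie at 22 to 46 bp, and the triangles, none of them blue, at 54 to 139 bp.

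The standard method marked 106 sites in the loci, 67 of them in both replicates, 35 in replicate 1 only and 4 in replicate 2 only. Of the 67, 9 were within 1 kb of a member's start and 14 near the start of another protein-coding gene, 10 lay on a thymocyte CTCF peak away from starts, and 34 were none of these. The fold enrichment was higher in replicate 1 in 54 of the 67. Their sequence was close to balanced, with a median AT content of 46.5% in the 200 bp at the summit, against 68.5% for the 6 thymocyte urea sites. The corresponding medians of the whole lists were 45.5% and 71.0%.

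The urea sites of both thymocyte replicates were not on the standard sites. Their distance to the nearest standard peak of either replicate ranged from 0.0580 to 10.5 kb, with a median of 4.02 kb, and 3 of the 6 were within 3 kb. From the most 5′ start of the members, the nearest urea site of both thymocyte replicates lay 11.9 to 354 kb away. The median was 25.9 kb, against 48.8 kb for all protein-coding genes, but Cd3d, Cd3e and Cd3g enter it with 1 shared site. Of the other members, Zap70 (22.3 kb) and Lat (25.9 kb) were nearer than the median of all genes. Cd5 (73.3 kb), Cd247 (121 kb), Cd28 (156 kb) and Lck (354 kb) were farther. The nearest standard site lay at a median of 0 kb, against 11.2 kb.

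CTCF had no thymocyte peak within 1 kb of any start of the 9 members, against 14.1% of genes, and in skin 1 member, Lck, had one, against 17.3%. In the gene body, 3 members had a thymocyte CTCF peak (Cd3g, Cd247 and Lck), against 30.5%, and 2 had a skin peak (Cd247 and Lck), against 39.1%. The window of each member held at least 1 CTCF peak in both tissues (73.8% of genes in thymocytes and 84.3% in skin). Of the 29 thymocyte peaks in the loci, 24 (82.8%) overlapped a skin peak, close to the 83.5% of the whole list. Of the 29 skin peaks, 24 (82.8%) overlapped a thymocyte peak, against 53.5% of the whole skin list, which is the longer one. The nearest thymocyte CTCF peak was 1.68 kb from the Cd5 start, 7.89 kb from the Lat start, 15.1 kb from the Zap70 start and 106 kb from the most 5′ start of Cd28.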

How the data were processed

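The deposited files are peak lists. The authors mapped reads to NCBI37/mm9 with Bowtie2 2.3.1, keeping unique matches, and called peaks sample by sample (MACS2 2.2.7, q-value cutoff 0.01); use of an input is not given in the sources used here. Per peak, the authors' caller gave the fold enrichment as a ratio to local background, and the deposited −log10 q-value. The lists hold no read counts, so depth and counting error are unknown. Of 38 samples, 11 had a list; the others are not used here.

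Overlaps needed 1 bp. A peak in both replicates is one of replicate 1 that overlaps replicate 2. Replicate numbers follow the labels. Genes came from GENCODE vM1, sequence from NCBIM37. Exact permutation tests over libraries used Python 3.11.15 and numpy 2.4.6, with a threshold of 0.05, and were checked on simulated data. All 9 genes are named. Sites named are the thymocyte urea sites, the standard site nearest each start, the strongest brain-only sites, and CTCF peaks near starts or of 1 tissue in a gene body; others were chosen after their values were seen. The members and lists were chosen with earlier results of these data known. The alternatives tried included a stricter −log10 q minimum (5), flanks of 20 or 100 kb, lists of equal size, an overlap of 50%, 3 kb around starts, removal of 57 regions with a peak in all 11 lists, each replicate left out, permutation within replicate numbers and, added after seeing the data, gene bodies alone.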

Additional observations from a re-analysis of the deposited data

How the results depend on the processing

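The tissue order, the 1 result whose test could pass 0.05, passed it in 12 of 13 alternatives. That order was known from the lengths of the whole lists, so these passes are no independent support for it. The 2-against-2 tests could not pass 0.05, and their p-values say nothing of stability. With SATB1 lists of equal size, the tissue difference fell to 0.500 peaks, and 1 member each had a thymocyte and a brain urea peak in both replicates, in place of 6 and 7. In gene bodies alone these were 0 and 2, and the difference in the share on a BUR turned to -7.29 percentage points; fewer peaks entered both settings. With flanks of 20 and 100 kb, brain exceeded skin by 7.50 and 25.0 peaks in place of 15.5, and with flanks of 20 kb 4 members had a thymocyte peak. With lists of equal size, 6 members in place of 8 had a standard peak at a start. The share of all genes was not counted for lists of equal size or flanks of 20 kb. These changes in member counts therefore have no background. Leaving out each replicate in turn, members with a skin urea peak ranged from 0 to 1, brain minus skin from 14.5 to 16.5 peaks (p = 0.0333, exact permutation), standard minus urea from 66.0 to 93.0 peaks, and the CTCF share difference from 10.3 to 21.5 points. Removing the 57 regions common to all lists changed nothing, since 0 lay in the loci. Replicate numbers do not pair samples: the correlation of replicate differences over genes ranged from -0.0436 to 0.172. Under the replicate block the tissue order had p = 0.0278 and the differences 79.5, 39.8 and 15.9 had p = 0.500, the smallest possible by exact permutation, so no call changed. With 2 libraries a group, no difference of any size between the standard and urea methods could pass the threshold, and without counts the error of a single library is unknown.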
